A study of Homo sapiens with 24 samples.

Results

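The genes described here code for the proteins of the cytoplasmic ribosome. They were taken from the authors' gene table by symbol, as protein-coding genes named RPL or RPS followed by a number, together with RPLP0, RPLP1, RPLP2 and RPSA. The table held 63677 genes, and 104 entries matched. Of these, 85 lie on the chromosomes, 52 of the large and 33 of the small subunit, and 19 are copies on alternate contigs, which were at 0 in every library. Among the 85 genes, 77 code for the usual set of ribosomal proteins and 8 are paralogs or copies, among them RPL3L, RPL7L1, RPL10L, RPL22L1, RPL26L1, RPL39L and RPS27L. RPL3L, a muscle paralog of RPL3, was 1 of the 2 genes too low to be tested, which left 83 of the 85.

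Total RNA had been sequenced from 3 lines of human liver cancer cells obtained from ATCC: HepG2, SNU398 and SNU475. Each line was given decitabine (5-Aza-CdR, a cytosine analogue that traps DNA methyltransferases) at 100 nM, GSK-126 (which blocks EZH2, the enzyme of the Polycomb complex that methylates histones) at 500 nM, the combination of both at these doses, or the vehicle DPBS. Dosing was daily for 3 days, and cells were collected on day 14 for HepG2 and SNU398 and on day 21 for SNU475. In comparisons of SNU475 with the other lines, line and day of collection therefore cannot be told apart. Each of the 12 groups had 2 libraries, A and B, and the labels do not say whether these came from separate cultures, so p-values measure the spread between libraries, which may be technical.

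Each ribosome holds about one copy of every ribosomal protein, and the genes for these proteins are spread over nearly all chromosomes. Their mRNAs are among the most abundant of a growing cell and mostly begin with a C followed by a run of pyrimidines, the terminal oligopyrimidine (TOP) tract, through which mTOR and LARP1 control their translation and stability. In liver cancer cells, as in other dividing cells, production of these proteins rises with growth and is driven by MYC among others. Several have roles outside the ribosome, such as RPL5 and RPL11, which bind MDM2 when ribosome assembly is disturbed.

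Counted in units of 1e6, 32.6 to 60.37 reads per library stood behind the RPKM unit (reads per kilobase and 1e6 reads), of which 57.2% to 69.5% lay in genes, and 0.702 to 1.974 fell on the ribosomal protein genes. Between replicates, these genes differed by a median of 0.023 to 0.058 on the log2 scale. Some genes are counted below but not described. The 9 hepatocyte markers were high in HepG2, where their summed level was 9550 and 9780 RPKM with decitabine, 9390 in both libraries with GSK-126, 6530 and 6620 with the combination and 11500 and 11700 with DPBS. Their part in the HepG2 results was not tested. They were nearly absent from SNU398 and SNU475, where the sum was 0.734 to 76.5 RPKM. Among the libraries of those 2 lines, SNU398 decitabine A (59.1 RPKM, against 1.06 RPKM in replicate B) and SNU475 DPBS A (76.5 RPKM, against 17.5 RPKM in replicate B) were the highest, 0.51% and 0.66% of the level in HepG2 DPBS. The endothelial markers PECAM1, CDH5 and VWF summed to at most 0.601 RPKM in a library. The 4 leukocyte markers (PTPRC, CD68, CD3E and CD14) summed to 4.75 to 4.81 RPKM with decitabine, 0.417 to 0.462 with GSK-126, 4.04 to 4.30 with the combination and 0.888 to 1.12 with DPBS in HepG2. In SNU475 the sum was 6.55 to 6.70, 4.85 to 5.15 and 4.36 to 4.46 with these treatments and 13.3 with DPBS, and in SNU398 it was at most 0.719. PTPRC and CD3E, which define leukocytes and T cells, were under 0.05 RPKM in HepG2, so most of the sum there came from CD68 and CD14. CD3E was under 0.05 RPKM in every library. In SNU398 with DPBS and with GSK-126, CD14 and CD68 were under it too, so most of the sum came from PTPRC. In SNU475 only CD3E was under it in both libraries of a group. In bulk RNA, fewer cells of a kind and less RNA per cell cannot be told apart. Changes below are on the scale of log2(scaled RPKM + 0.5), levels are scaled RPKM, positions are on hg19, and a gene is said to rise or fall where limma's adjusted p over all 19377 genes tested was under 0.05.

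The starts of 9 of these genes are shown, which carry some of the larger changes below or belong to a paralog that behaves unlike the rest. Each stretch is the coding strand around the start annotated by RefSeq on GRCh38.p14, with 50 bases before it and 20 from it on, except for RPL10L with 150 before. Capitals mark the pyrimidine tract (a C followed by at least 4 C or T, beginning within 5 bases of the start) in all but RPL10L, where they mark CG pairs.
RPS12 (chr6:132814519-132814588, plus strand): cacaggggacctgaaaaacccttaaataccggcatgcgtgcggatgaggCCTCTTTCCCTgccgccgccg
RPS29 (chr14:49598691-49598760, minus strand): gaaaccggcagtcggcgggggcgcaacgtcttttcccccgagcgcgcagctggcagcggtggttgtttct
RPL39 (chrX:119791611-119791680, minus strand): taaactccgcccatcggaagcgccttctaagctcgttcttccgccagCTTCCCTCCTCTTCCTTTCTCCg
RPL13A (chr19:49487558-49487627, plus strand): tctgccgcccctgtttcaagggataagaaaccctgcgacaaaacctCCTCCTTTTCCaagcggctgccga
RPS9 (chr19:54200808-54200877, plus strand): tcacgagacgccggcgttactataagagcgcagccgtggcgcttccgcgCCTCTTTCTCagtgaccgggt
RPSA (chr3:39406670-39406739, plus strand): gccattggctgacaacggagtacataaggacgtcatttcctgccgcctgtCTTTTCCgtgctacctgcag
RPL22L1 (chr3:170870176-170870245, minus strand): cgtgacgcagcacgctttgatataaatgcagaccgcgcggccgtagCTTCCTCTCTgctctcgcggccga
RPS27L (chr15:63157458-63157527, minus strand): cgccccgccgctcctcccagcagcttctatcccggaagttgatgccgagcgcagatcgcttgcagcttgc
RPL10L (chr14:46651762-46651931, minus strand): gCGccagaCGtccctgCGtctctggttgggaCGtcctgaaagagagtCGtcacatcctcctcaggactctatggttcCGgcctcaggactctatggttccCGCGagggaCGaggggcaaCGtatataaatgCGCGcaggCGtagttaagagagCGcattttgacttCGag

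RefSeq promoters were matched for 67 of the 85 genes, 62 of them in the usual set. A pyrimidine tract at the start was found in 50 of these 62 (80.6%), against 22.0% of 22199 promoters of protein-coding genes. Tracts of at least 8 bases were in 40 (64.5%), against 5.8% of all. The median tract was 11 bases, and the longest, 22 bases, is that of RPL39 shown above. RPS29 and RPS27L had none at the annotated start. The letters CCGGAAG, on either strand of the 300 bases around the start, were in 33.9% of the 62 promoters and 12.8% of all, AAGATGG, which can overlap it, in 12.9% and 6.0%, and TATAAA, on the coding strand 20 to 35 bases before the start, in 3.2% and 3.0%. RPL10L, an intronless copy of RPL10 used in the testis, has 15 CG pairs in the 170 bases shown. Of the genes, 28 hold snoRNA genes within their bounds, 60 in all, by GENCODE v29, in which 84 of the 85 were found.

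In the vehicle, RPS12, a small-subunit protein, was the highest of the 85 genes in all 3 lines. Its level was 285 and 279 in SNU475 DPBS, 514 and 569 in SNU398 DPBS, and 971 and 927 in HepG2 DPBS. In HepG2 it stood more than its spread above the next gene, RPL19 (437 ± 5.57, SD, n = 2). In SNU398 it did not stand apart from RPL8 (524 ± 5.46), since its own spread was 38.9. In SNU475 RPL8 came next at 217 ± 8.77. RPL17 and RPL36A were among the lowest of the usual set, at 0.478 to 1.32, both of which overlap read-through genes that can take their reads. Levels are per length of all annotated exons, 767 to 8153 bases, so a gene with long rare exons reads low, and 75 of the genes have named pseudogenes among which reads could be split.

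The vehicle comparison of lines asked how far they differ before any drug. SNU475 had the lowest levels by far. In SNU475 against HepG2, 74 of 83 genes were lower and 7 higher (36.9% and 42.4% of all genes tested), with a median of -1.14, against 0.04 over all genes. In SNU475 against SNU398, 76 were lower and 4 higher (38.1% and 40.0%), with a median of -0.96. RPS15A, a small-subunit protein, had 6.88 and 7.11 in SNU475 DPBS, 14.1 and 13.6 in SNU398 DPBS, and 33.8 and 33.7 in HepG2 DPBS. Its change in SNU475 against HepG2 was -2.19 ± 0.035 (SE; limma adjusted p = 3.5e-17), and that of RPS29 was -1.97. The paralog RPL39L, which replaces RPL39 in male germ cells, went the other way, with 4.77 and 5.22 in SNU475 DPBS, 0.0139 and 0.0432 in SNU398 DPBS, and 0.0399 and 0.0428 in HepG2 DPBS. RPL10L and RPS27L were higher in SNU475 than in SNU398 as well, by 1.79 ± 0.12 and 1.26 ± 0.04 (SE). RPL36A (0.35) and RPL26L1 (0.26) were higher in SNU475 than in HepG2.

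SNU398 and HepG2 were closer. In SNU398, 24 genes were higher and 46 lower than in HepG2 (40.0% and 36.5% of all genes), with a median of -0.12. That direction depends on the scaling. Without scaling 49 were higher and 23 lower, and with quantile normalization 52 and 20. RPS15A (-1.26), RPL10 (-1.22) and RPL37A (-1.22) were lowest relative to HepG2, and RPS26 (0.96), RPL30 (0.91) and RPL8 (0.76) highest. RPS26, which lines the mRNA exit of the small subunit, had 22.8 and 23.7 in SNU398 DPBS and 12.1 and 11.3 in HepG2 DPBS.

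**Figure D1:**
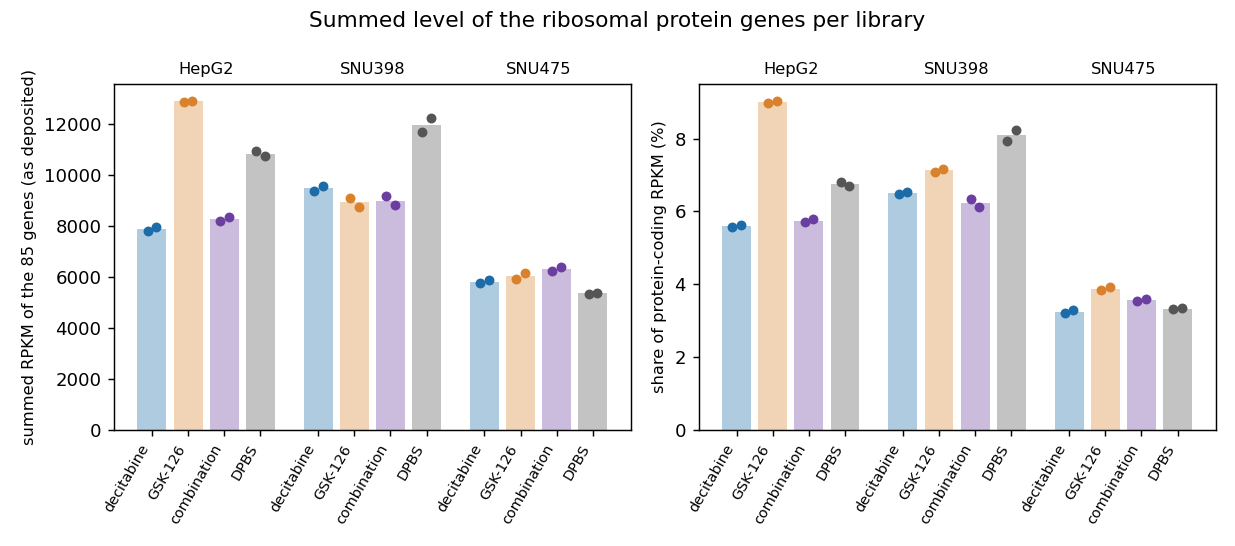
Summed RPKM of the ribosomal protein genes as deposited, by cell line, with decitabine, GSK-126 and combination left of DPBS (left panel), and the same as a share of the RPKM of all protein-coding genes (right panel). Each point is a library and each bar the mean of 2. In the left panel the GSK-126 libraries of HepG2 (12870 and 12925) lie above DPBS (10752 and 10935) and those with decitabine below. In the same panel every treated library lies below DPBS in SNU398 and above it in SNU475. In the right panel the SNU475 decitabine libraries (3.21% and 3.28%) lie below DPBS (3.32% and 3.34%).

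The summed level gives the size of the response. In HepG2 it was 7880 RPKM with decitabine (72.7% of DPBS), 12898 with GSK-126 (119%), 8258 with the combination (76.2%) and 10844 with DPBS. In SNU398 it was 9474 with decitabine (79.1%), 8936 with GSK-126 (74.6%), 8989 with the combination (75.0%) and 11980 with DPBS. In SNU475 it was 5804 with decitabine (108%), 6041 with GSK-126 (113%), 6305 with the combination (118%) and 5360 with DPBS. In each line no treated library overlapped the DPBS libraries. As a share of the RPKM of all protein-coding genes, the decitabine value in SNU475 turned, with 3.25% against 3.33% in DPBS (97.4% of it), while the other 8 kept their side of DPBS.

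**Figure D2:**
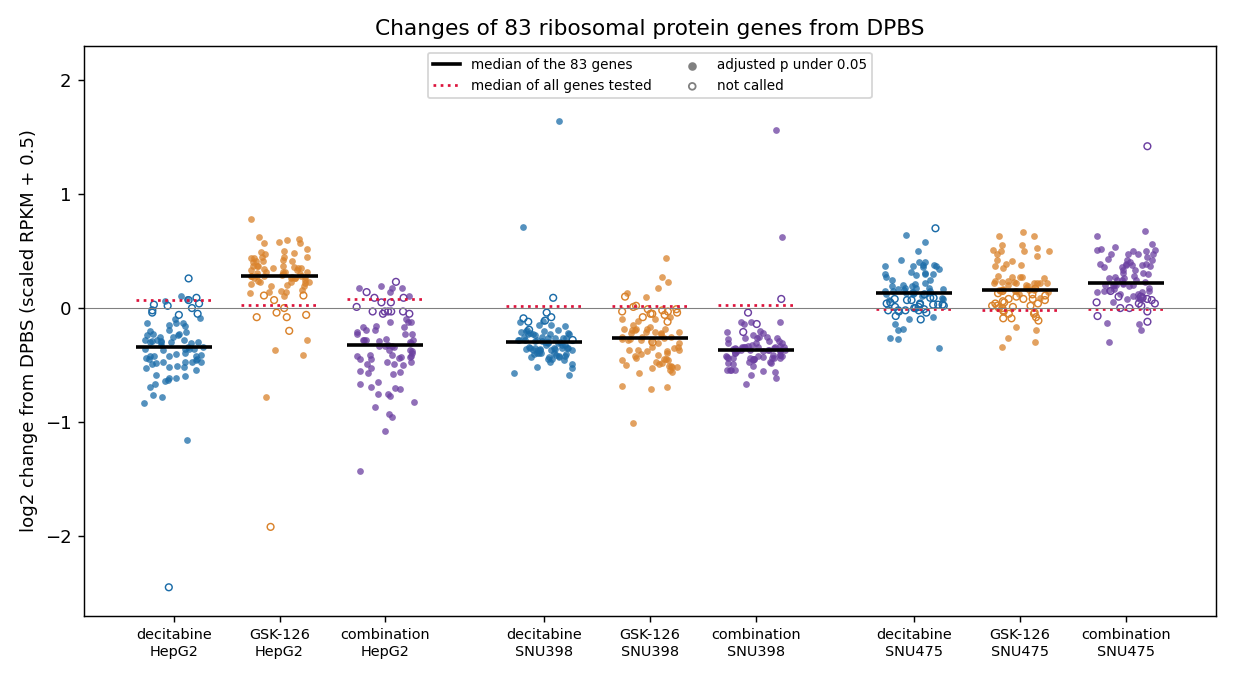
Log2 change from DPBS of the 83 ribosomal protein genes tested, a point a gene, in the 9 comparisons of a treatment with DPBS; black bars are their medians, dotted lines the medians of all genes, filled points were called and open points were not. The clouds sit below 0 for decitabine and the combination in HepG2 and SNU398 and for GSK-126 in SNU398, and above 0 for GSK-126 in HepG2 and, by less, for all treatments in SNU475.

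In HepG2, decitabine lowered most ribosomal protein genes. Of 83, 68 fell and 3 rose, where 18.3% of all genes fell and 35.9% rose. The median change was -0.34, against 0.07 over all genes. Small-subunit genes of the usual set had a median of -0.46, with 25 of 31 lower, and large-subunit genes one of -0.30, with 40 of 46 lower. With quantile normalization 54 fell and 9 rose.

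RPS29, a small-subunit protein mutated in Diamond-Blackfan anaemia, had the largest called change. On hg19 it lies on chromosome 14 at 50043390 to 50065408. Its level was 43.0 and 43.4 with decitabine, against 99.6 and 95.1 with DPBS, a change of -1.16 ± 0.083 (SE; limma adjusted p = 2.3e-08). The 2 groups did not overlap and lay more than a factor of 2 apart. RPL39, which lines the exit tunnel for the new protein, had 39.2 and 39.1 with decitabine and 71.3 and 69.1 with DPBS, a change of -0.83 ± 0.081. RPS12 had 551 and 553 with decitabine and 971 and 927 with DPBS, a change of -0.78 ± 0.06, the largest loss in RPKM. Both groups were again apart.

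The 3 genes that rose with decitabine in HepG2 did so by little. RPL13A, a large-subunit protein that also holds interferon-gamma-induced mRNAs back from translation, changed by 0.11, but by 0.08 with an adjusted p of 0.087 without DPBS B. RPS9 changed by 0.08 and RPL3, the large-subunit protein next to the catalytic centre, by 0.06. Without scaling RPS9 and RPL3 had changes of -0.01 and -0.03, and without DPBS B their adjusted p was 0.22 and 0.077.

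GSK-126 did the opposite in HepG2. Of 83 genes, 69 rose and 4 fell, where 31.0% of all genes rose and 21.7% fell. The median was 0.28, against 0.03 over all genes. The 2 subunits moved alike, with 43 of 46 large-subunit genes higher (median 0.32) and 25 of 31 small-subunit genes (median 0.26). Of the genes higher with GSK-126, 58 were lower with decitabine, an overlap not counted over all genes. Mitochondrial reads were 1.74% and 1.67% of gene reads with GSK-126 and 2.39% and 2.32% with DPBS, and their part was not tested.

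RPL13A rose most with GSK-126. It had 531 and 549 with GSK-126 and 321 and 308 with DPBS, a change of 0.78 ± 0.029 (1.72-fold; limma adjusted p = 8.9e-12). RPL23, a large-subunit protein, had 167 and 169 with GSK-126 and 111 and 107 with DPBS. RPS9, which helps form the decoding site, had 115 and 119 with GSK-126 and 78.2 and 75.1 with DPBS. None of these groups overlapped. RPS12 and RPS29, the genes with deep losses under decitabine, were not called with GSK-126, with changes of 0.11 (adjusted p = 0.14) and -0.20 (adjusted p = 0.053).

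Of the 4 genes that fell with GSK-126 in HepG2, 3 are paralogs. RPS27L, a paralog of RPS27, had 8.68 and 8.36 with GSK-126 and 14.7 and 15.3 with DPBS, a change of -0.78 ± 0.04 (0.582-fold; adjusted p = 3.1e-10). RPL22L1 changed by -0.37, RPL26L1 by -0.28 and RPS26, of the usual set, by -0.41. All 4 kept their call whichever HepG2 library was left out.

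**Figure D3:**
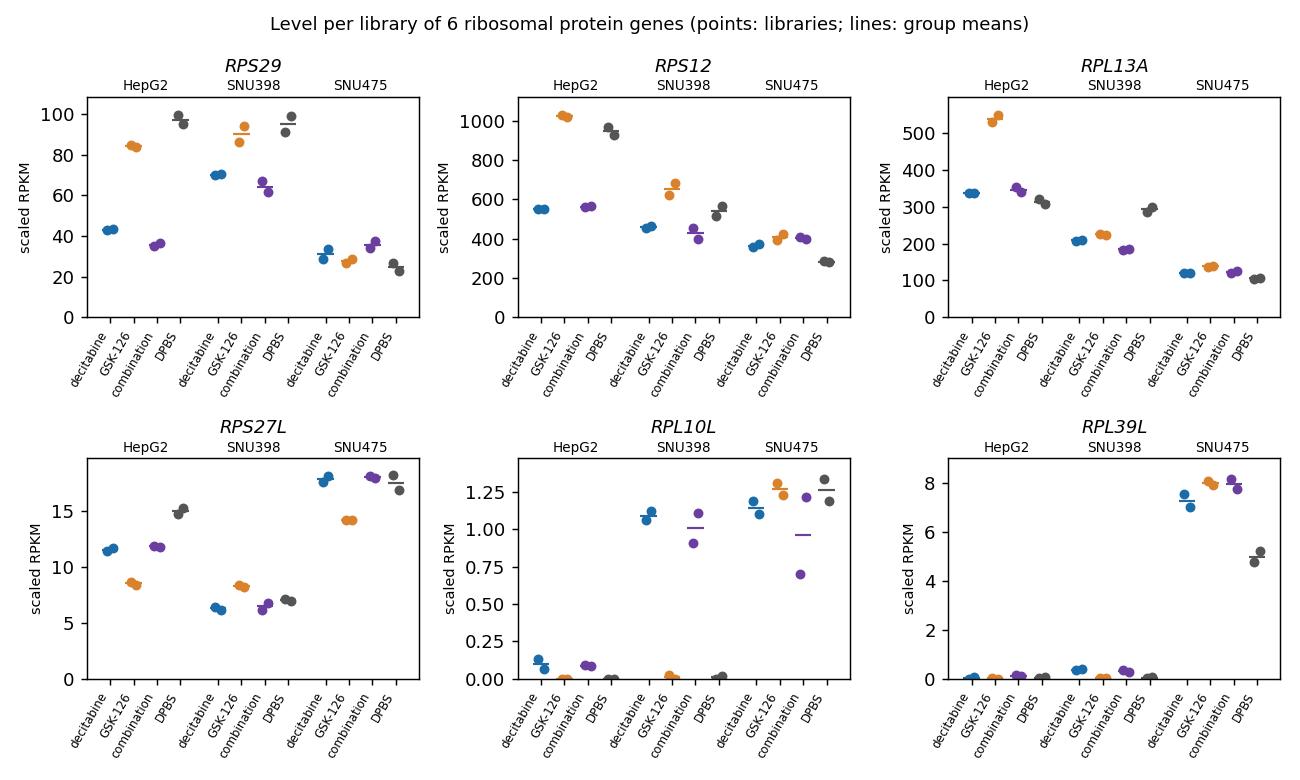
Level in every library of 6 ribosomal protein genes (scaled RPKM, y axes differ), with decitabine, GSK-126 and combination left of DPBS in each line. RPS29 and RPS12 are low in HepG2 with decitabine and the combination, RPL13A is high in HepG2 with GSK-126, RPS27L is low there, and RPL10L and RPL39L appear in SNU398 with decitabine and the combination.

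The combination in HepG2 resembled decitabine. Of 83 genes, 63 fell and 6 rose, where 25.9% of all genes fell and 40.6% rose, and the median was -0.32, against 0.08 over all genes. Of the genes higher with GSK-126 and lower with decitabine, 52 were lower with the combination, which was not counted over all genes. RPS29 had 35.2 and 36.3 with the combination and 99.6 and 95.1 with DPBS, a change of -1.43 ± 0.083 (0.371-fold; limma adjusted p = 8.6e-10). RPS13, a small-subunit protein, had 65.5 and 69.6 with the combination and 145 and 143 with DPBS, a change of -1.08 ± 0.031 (adjusted p = 2.6e-13). These 2 genes were the only ones of the 83 called past a factor of 2 here. RPL39 (-0.96) and RPL21 (-0.93) were close to it.

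Against decitabine alone, the combination in HepG2 had 15 of the 83 genes higher and 18 lower, with a median of 0.01. Both counts are smaller shares than those of all genes (30.0% and 25.8%). The balance depends on the scaling, with 21 higher and 9 lower without it and 10 and 23 with quantile normalization. It also rests on single libraries, since 16 were higher and 9 lower without decitabine B and 13 and 11 without combination A. RPS15A (-0.36 ± 0.035), RPS13 (-0.33 ± 0.031) and RPL21 (-0.32 ± 0.073) were the lowest, and RPL13 (0.24 ± 0.028) the highest of the usual set. RPL39L, at 0.23, had at most 4 reads in a HepG2 library.

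Against GSK-126 alone, the combination had 75 genes lower and 5 higher (28.8% and 36.9% of all genes), with a median of -0.61. RPS13 (-1.24 ± 0.031), RPS29 (-1.23 ± 0.083), RPL5 (-1.12 ± 0.026) and RPS3A (-1.11 ± 0.061) all fell past a factor of 2. RPL5 had 172 and 175 with the combination and 378 and 378 with GSK-126. RPS27L was higher with the combination than with GSK-126, by 0.45 ± 0.04.

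The interaction is the change with the combination less the sum of the changes with each drug, in log2 units, and is 0 where the 2 effects multiply. In HepG2 it was below 0 for 65 genes and above 0 for 7 (27.9% and 25.1% of all genes), with a median of -0.28. RPL22 (-0.87 ± 0.068), RPL13A (-0.75 ± 0.041) and RPL15 (-0.70 ± 0.05), all of the large subunit, had the lowest values. For RPL15 the single effects were -0.30 with decitabine and 0.57 with GSK-126, and the combination gave -0.43. RPS27L (0.82 ± 0.056) and RPS26 (0.37 ± 0.072), which GSK-126 lowered, were among the highest values.

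**Figure D4:**
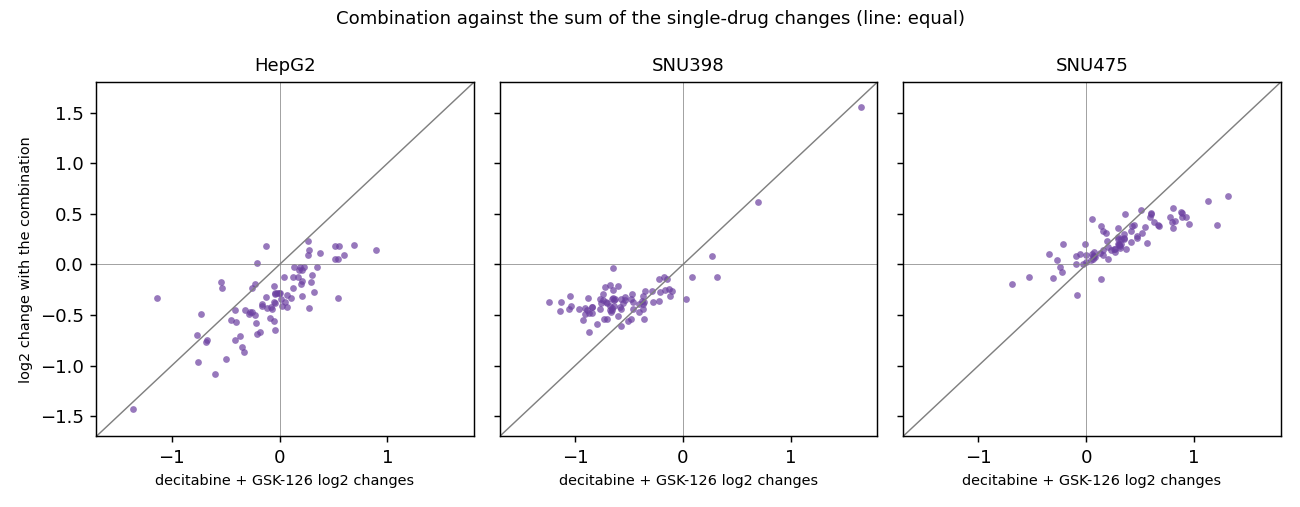
Log2 change with the combination (y axis) against the sum of the changes with decitabine and with GSK-126 (x axis), a point a ribosomal protein gene, by cell line, with 1 gene not drawn, and the line of equality. HepG2 points lie mostly below the line (median interaction -0.28), SNU398 points mostly above it (0.20) and SNU475 points on both sides (-0.08).

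In SNU398, decitabine also lowered the set. Of 83 genes, 73 fell and 2 rose, where 15.4% of all genes fell and 23.4% rose, and the median was -0.30, against 0.02 over all genes. None of the usual set rose, 42 of 46 large-subunit and 28 of 31 small-subunit genes fell. RPS10 had 39.9 and 39.5 with decitabine and 63.1 and 57.2 with DPBS, a change of -0.59 ± 0.074 (limma adjusted p = 1.5e-05). RPS15A (-0.57) and RPS27 (-0.53) were next, and the groups of all 3 were apart. Of the 83 genes, 66 were lower with decitabine in both HepG2 and SNU398, an overlap not counted over all genes. Leaving out single libraries, decitabine A with its higher hepatocyte markers included, gave 70 to 73 calls. Mitochondrial reads were 1.87% and 1.95% of gene reads with decitabine and 1.96% and 1.97% with the combination in SNU398, against 1.23% and 1.29% with DPBS, and their part was not tested.

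The 2 genes that rose with decitabine in SNU398 were the testis paralogs RPL10L and RPL39L. RPL10L, a single-exon gene on chromosome 14 at 47120222 to 47121028, had 54 and 56 reads with decitabine, against 0 and 1 with DPBS. In scaled RPKM this was 1.06 and 1.12 with decitabine and 0 and 0.019 with DPBS (limma adjusted p = 5.3e-08). RPL39L had 22 and 26 reads with decitabine and 1 and 3 with DPBS (adjusted p = 1.6e-06). With the combination RPL10L had 36 and 55 reads and RPL39L 19 and 17, and with GSK-126 alone they had 1 and 0, and 2 and 1. In HepG2 neither passed 4 reads in any library. In SNU475 both were present with DPBS, and RPL10L had 24 to 60 reads in every group. Both stayed far below the parent genes, as RPL10 was at 26.5 and 26.1 with decitabine in SNU398.

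GSK-126 lowered ribosomal protein genes in SNU398, unlike in HepG2. Of 83 genes, 62 fell and 6 rose, where 22.4% of all genes fell and 30.0% rose, and the median was -0.26, against 0.02 over all genes. Of the 83, 56 were higher in HepG2 and lower in SNU398, a pattern not counted over all genes. RPL7A, a large-subunit protein whose gene on chromosome 9 at 136215069 to 136218281 hosts 4 snoRNAs, had 86.9 and 84.2 with GSK-126 and 169 and 176 with DPBS, a change of -1.01 ± 0.024 (0.497-fold; limma adjusted p = 1.1e-13). RPL8 (-0.71 ± 0.032), RPL23 (-0.69 ± 0.04) and RPL5 (-0.68 ± 0.026) followed, all of the large subunit.

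Among the 6 genes that rose with GSK-126 in SNU398, RPLP1 moved most. This acidic protein of the stalk had 247 and 237 with GSK-126 and 181 and 176 with DPBS, a change of 0.44 ± 0.03 (adjusted p = 1.1e-08), with the groups apart. RPS12 changed by 0.27 ± 0.06 and RPS27L by 0.23 ± 0.04. RPL26L1 (0.18; adjusted p = 0.25 without DPBS A), RPL19 (0.13) and RPS19 (0.10) were the others, and RPL19 and RPS19 were below 0 without scaling. The GSK-126 libraries of SNU398 had 60.9% and 57.2% of reads in genes, 0.77% and 0.83% of gene reads from mitochondria, against 1.23% and 1.29% in DPBS, and 4.46% and 4.01% from the small structured RN7S RNAs, against 2.63% and 2.42%. The part of these in the result was not tested.

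With the combination, 77 of 83 genes fell in SNU398 and 2 rose, where 18.4% of all genes fell and 28.9% rose. The median was -0.37, and all 50 genes of the usual set with a pyrimidine tract at the start were lower, as were 10 of its 12 matched genes without one. RPL13A had 184 and 186 with the combination and 287 and 301 with DPBS, a change of -0.67 ± 0.029 (limma adjusted p = 1.5e-10). RPS3A (-0.61) and RPL39 (-0.59) followed, and RPL10L and RPL39L were the genes that rose.

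Against decitabine alone, the combination in SNU398 had 20 genes lower and 2 higher (8.07% and 12.5% of all genes), with a median of -0.06. The count was 12 without decitabine B and 11 without combination B, and with quantile normalization 19 were lower and 6 higher. RPL23A (-0.29), RPL31 (-0.24) and RPL35A (-0.24) were the lowest and RPS10 (0.22) and RPS27 (0.20) the 2 that were higher. Against GSK-126 alone, 42 were lower and 15 higher (23.5% and 26.6%), with a median of -0.10. That direction depends on the scaling too, with 30 higher and 21 lower without it and 24 and 27 with quantile normalization. RPS12 (-0.62 ± 0.06), RPLP1 (-0.56 ± 0.03) and RPS6 (-0.51 ± 0.052) were the lowest, and RPL7A was higher by 0.64 ± 0.024, at 134 and 133 with the combination.

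The interaction in SNU398 was above 0 for 46 genes and below 0 for 7 (18.4% and 22.8% of all genes), with a median of 0.20. RPL7A (0.86 ± 0.034), RPS10 (0.76 ± 0.1) and RPL8 (0.74 ± 0.046) had the highest values. Each drug alone lowered these 3, and the combination lowered them less than GSK-126 did. RPL8 had 412 and 415 with decitabine, 328 and 313 with GSK-126, 422 and 424 with the combination and 528 and 520 with DPBS. RPLP1 (-0.44), RPS12 (-0.38) and RPS19 (-0.20) were the lowest.

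**Figure D5:**
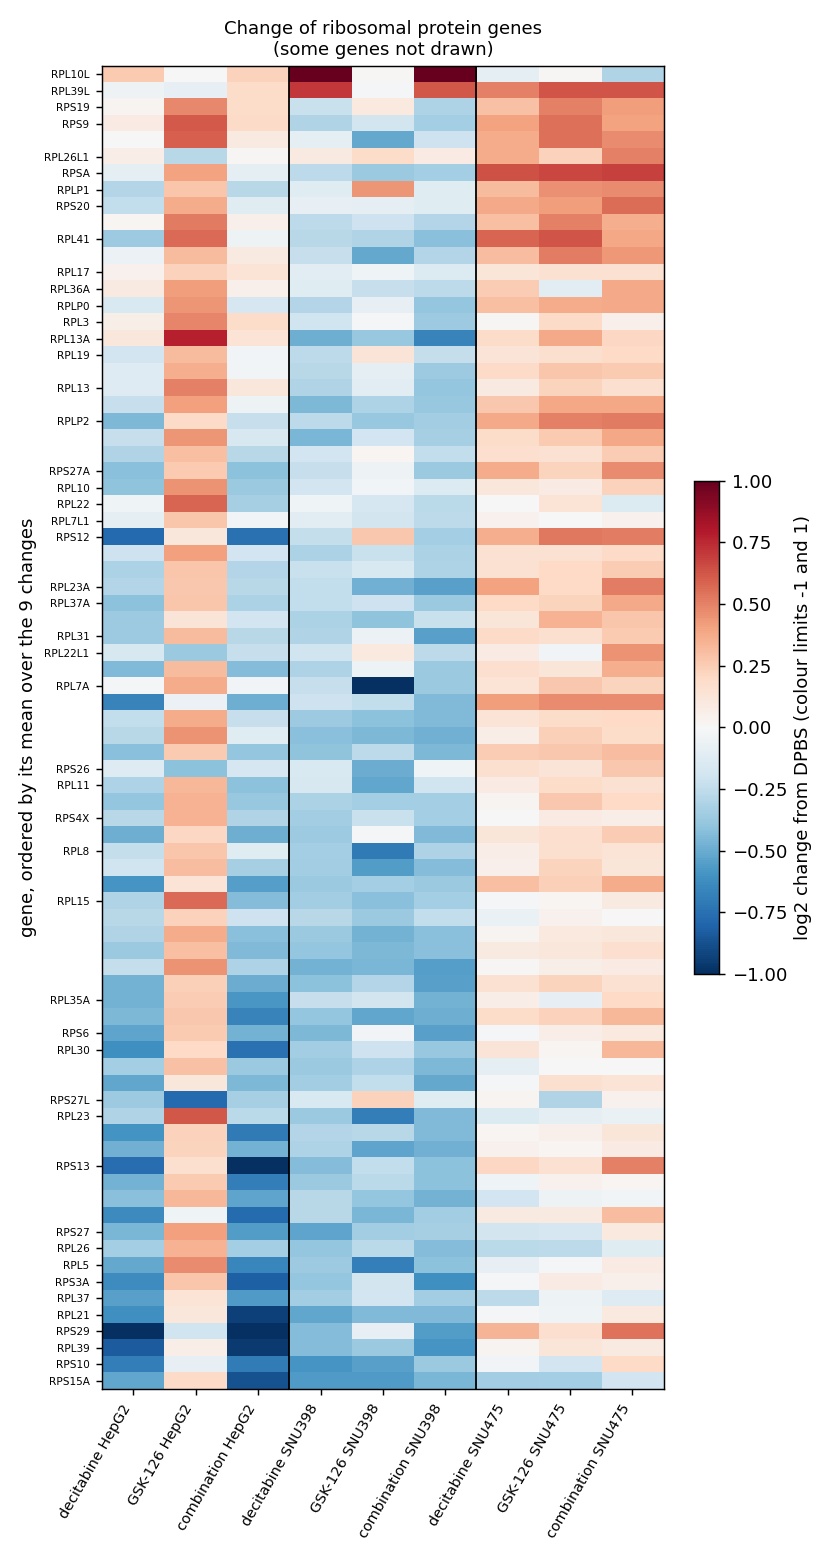
Log2 change from DPBS of the ribosomal protein genes (rows) in the 9 comparisons (columns, by line and treatment), blue below and red above 0. Some genes are not drawn, and symbols are given for most of the genes named in the text. In HepG2 the GSK-126 column is mostly red between the mostly blue decitabine and combination columns, SNU398 is mostly blue and SNU475 mostly pale red.

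In SNU475 the set rose, and by less. With decitabine 47 of 83 genes rose and 8 fell, where 24.2% of all genes rose and 27.3% fell, and the median was 0.13, against -0.01 over all genes. This count depends on the scaling, since with quantile normalization 24 rose and 24 fell, at a median of -0.02. RPSA, the small-subunit protein also known as a laminin receptor, had 32.6 and 35.1 with decitabine and 21.9 and 21.2 with DPBS, a change of 0.64 ± 0.03 (1.56-fold; limma adjusted p = 2.3e-10). RPL41, the smallest ribosomal protein, had 19.1 and 22.0 with decitabine and 12.6 and 14.4 with DPBS, a change of 0.58 ± 0.13. RPL39L changed by 0.50. In these 3 genes the groups were apart. RPS15A (-0.35), RPL26 (-0.27) and RPL37 (-0.26) were the lowest, and RPS15A had 5.36 and 5.37 with decitabine and 6.88 and 7.11 with DPBS. Mitochondrial reads were 4.18% and 4.29% of gene reads with decitabine and 2.16% and 2.23% with DPBS, and their part in the result was not tested. Leaving out single libraries, DPBS A with its higher hepatocyte markers included, gave 45 to 52 calls.

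GSK-126 raised 49 of 83 genes in SNU475 and lowered 5, where 21.5% of all genes rose and 28.5% fell, with a median of 0.16, against -0.02 over all genes. With quantile normalization 32 rose and 9 fell. Mitochondrial reads were 1.26% and 1.32% of gene reads with GSK-126 and 2.16% and 2.23% with DPBS, and their part was not tested. RPSA had 34.4 and 34.8 with GSK-126 and 21.9 and 21.2 with DPBS (0.67 ± 0.03; limma adjusted p = 1.7e-10). RPL41 and RPL39L changed by 0.63 each and RPS9 by 0.55. The 5 that fell were RPS15A (-0.34), RPS27L (-0.30), RPL26 (-0.26), RPS10 (-0.19) and RPS27 (-0.17). Of these, RPL26 had an adjusted p of 0.054 without GSK-126 A and RPS10 one of 0.34 without DPBS B.

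The combination raised 63 of 83 genes in SNU475 and lowered 4, where 25.3% of all genes rose and 29.6% fell, at a median of 0.22, against -0.01 over all genes. With quantile normalization 39 rose and 10 fell. Mitochondrial reads were 3.85% and 3.95% of gene reads with the combination, against 2.16% and 2.23% with DPBS, and their part was likewise not tested. RPSA had 34.7 and 34.9 with the combination and 21.9 and 21.2 with DPBS (0.68 ± 0.03; limma adjusted p = 7.7e-11). RPL39L changed by 0.63, with 8.19 and 7.75 against 4.77 and 5.22, and RPS20 by 0.56. RPSA thus stood at nearly one level in the 6 treated libraries. Of the 4 that fell, RPS15A (-0.19) was called whichever library was left out. RPL10L (-0.30; adjusted p = 0.75 without combination A), RPL22 (-0.14; 0.082 without combination B) and RPL37 (-0.13; 0.19 without combination A) were not.

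Against decitabine alone, the combination in SNU475 had 31 genes higher and 0 lower (7.39% and 10.9% of all genes), at a median of 0.10. The count was 17 without decitabine A and 19 without combination B. RPL22L1 (0.37 ± 0.049), RPS13 (0.28 ± 0.031) and RPS27 (0.28 ± 0.04) were the highest. Against GSK-126 alone, 25 were higher and 7 lower (18.2% and 17.7%), at a median of 0.02. RPL36A (0.49), RPL22L1 (0.48) and RPS10 (0.39) were highest and RPL22 (-0.28) and RPL13A (-0.17) among the lowest.

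The interaction in SNU475 was below 0 for 29 genes and above 0 for 15 (16.6% and 19.7% of all genes), at a median of -0.08, and with quantile normalization below 0 for 16 and above 0 for 21. RPL41 (-0.83 ± 0.18), RPSA (-0.63 ± 0.043), RPS9 (-0.55 ± 0.042) and RPL39L (-0.51) had the lowest values, and the combination moved them about as far as, or less far than, GSK-126 alone. RPS15A (0.51 ± 0.05), RPS27 (0.44 ± 0.056) and RPS10 (0.43 ± 0.1) had the highest.

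The effect of each treatment was tested for a difference between the lines with limma's moderated F. The decitabine effect differed for 79 of 83 genes (68.2% of all genes tested), the GSK-126 effect for 80 (71.5%) and the combination effect for 81 (76.8%). Those not called included RPL17, RPL22 and RPL26 for decitabine, RPL10L and RPL17 for GSK-126, and RPL22 for the combination. In counts, 35 genes were lower with decitabine in HepG2 and SNU398 and higher in SNU475. With GSK-126, 34 were higher in HepG2 and SNU475 and lower in SNU398. With the combination 46 were lower in HepG2 and SNU398 and higher in SNU475. How many of all genes had these patterns was not counted, so the counts cannot be set against a background. The comparisons of a line share its DPBS libraries.

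By role, the stalk that calls elongation factors to the ribosome, RPLP0, RPLP1 and RPLP2, rose with all treatments in SNU475, by 0.30 to 0.52. RPLP2 there had 86.4 and 90.9 with decitabine, 94.5 and 98.4 with GSK-126, 97.9 and 97.4 with the combination and 68.7 and 67.3 with DPBS. In HepG2 they rose with GSK-126 by 0.19 to 0.44. With decitabine in HepG2 the changes were -0.15 for RPLP0, -0.29 for RPLP1 and -0.45 for RPLP2, and with quantile normalization RPLP0 reversed to 0.22. With GSK-126 in SNU398 RPLP1 rose by 0.44, while RPLP2 of the same stalk fell by 0.38.

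RPL5 and RPL11 hold MDM2 when free of the ribosome. In HepG2 both were among the 52 of 83 genes lower with decitabine, higher with GSK-126 and lower with the combination. There RPL5 changed by -0.51, 0.47 and -0.65 with decitabine, GSK-126 and the combination, and RPL11 by -0.31, 0.33 and -0.41. In SNU398 with GSK-126 they changed by -0.68 and -0.52, with RPL5 at 197 and 201 with GSK-126 and 314 and 327 with DPBS. In SNU475 RPL5 stayed near 0 (-0.08, -0.02 and 0.08, the last being -0.10 with quantile normalization). Its decitabine change was -0.05 and not called without decitabine A. RPL11 was called higher there with all 3 treatments, at 176 and 180 with decitabine, against 165 and 171 with DPBS. It had 189 and 192 with GSK-126 and 184 and 189 with the combination. The decitabine change of RPL11 was 0.05 and not called without DPBS A.

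RPS6, the small-subunit protein phosphorylated below mTOR, fell with decitabine and the combination in HepG2 (-0.53 and -0.47) and SNU398 (-0.45 and -0.54). It was not called with GSK-126 in SNU398 (-0.03), where it had 235 and 244 against 233 and 256 with DPBS, or with any treatment in SNU475. RPL10, which joins the large subunit last, changed by -0.40, 0.45 and -0.37 in HepG2 with decitabine, GSK-126 and the combination. RPL3 in HepG2 rose with GSK-126 (0.49) and the combination (0.18), at 305 and 310 with GSK-126, 251 and 246 with the combination and 220 and 218 with DPBS. RPS27A, which is made as a fusion with ubiquitin, changed by -0.42, 0.26 and -0.41 in HepG2 and by 0.37, 0.22 and 0.47 in SNU475. RPS4X, on the X chromosome, followed the set in HepG2 (-0.28, 0.35 and -0.30) and SNU398 (-0.35, -0.22 and -0.34) and was not called in SNU475.

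The other paralogs followed the set in some comparisons and not in others. RPS27L fell with all treatments in HepG2 (-0.36, -0.78 and -0.33), while its parent RPS27 changed by -0.46, 0.41 and -0.56. RPL22L1, which takes the place of RPL22, rose with the combination in SNU475 (0.45; 4.35 and 4.45, against 3.07 and 3.12 with DPBS) and not with either drug alone (0.08 and -0.03). RPL26L1 rose with all treatments in SNU475 (0.37, 0.23 and 0.50), its GSK-126 call having an adjusted p of 0.1 without GSK-126 B, while RPL26 was lower with decitabine and GSK-126. RPL7L1, a factor of large-subunit assembly, rose with GSK-126 in HepG2 (0.28; 21.5 and 20.5, against 17.3 and 16.9 with DPBS) and was not called in SNU475.

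Genes whose mRNAs belong with this set were read in the same comparisons. Of 16 other TOP mRNAs tested (17 listed), all 16 rose with GSK-126 in HepG2, at a median of 0.50, and 0 of them fell. Over all genes 31.0% rose and 21.7% fell there. EEF2, the translocation factor, changed by 0.93 ± 0.03 to 1084 ± 24.6, against 567 ± 14.7 with DPBS (SD, n = 2), and EIF4B by 0.91 ± 0.016. With decitabine in HepG2 5 rose and 7 fell (median -0.07), beside 35.9% and 18.3% of all genes. The counts were 2 and 11 without scaling and 9 and 1 with quantile normalization. EIF4B was higher with decitabine there by 0.36. In SNU398 15 of 16 fell with decitabine, 11 with GSK-126 and 14 with the combination, where 15.4%, 22.4% and 18.4% of all genes fell. In SNU475 10 rose and 2 fell with the combination (25.3% and 29.6% of all genes), but 3 and 4 with quantile normalization. Of the 3 ribosomal proteins whose names the rule does not take, FAU, a ubiquitin-type fusion, fell with decitabine in HepG2 (-0.27) and rose with it in SNU475 (0.33).

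The 9 non-coding hosts of snoRNAs, several of which begin with TOP tracts, gave 7 higher and 0 lower with GSK-126 in HepG2. Their median was 1.02, and 31.0% of all genes were higher and 21.7% lower there. ZFAS1 was at 150 ± 3.54 with GSK-126 and 64.2 ± 0.847 with DPBS, and EPB41L4A-AS1 rose by 1.24. In SNU398 5 of the 9 rose and 1 fell with GSK-126 (4 and 3 without scaling). There 30.0% of all genes rose and 22.4% fell, and most ribosomal protein genes fell. SNHG6 fell by 1.33 on the log2 scale with the combination in HepG2. Ribosomal protein genes that host snoRNAs and those that do not had about one median in HepG2 with decitabine (-0.35 and -0.35) and with GSK-126 (0.31 and 0.31).

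Of 45 ribosome biogenesis factors in SNU475, 38 rose and 0 fell with decitabine (24.2% and 27.3% of all genes), at a median of 0.33. With GSK-126 30 rose and 3 fell (21.5% and 28.5%). With the combination 41 rose and 0 fell (25.3% and 29.6%), at a median of 0.35. MRTO4, which prepares the stalk site of the large subunit, had 24.7 ± 0.447 with decitabine, 23.6 ± 0.0431 with GSK-126, 25.4 ± 0.209 with the combination and 13.5 ± 0.129 with DPBS. In SNU398, 28 fell with decitabine, 34 with GSK-126 and 33 with the combination, beside 15.4%, 22.4% and 18.4% of all genes. In HepG2 the factors split, with 26 higher and 13 lower with GSK-126 (31.0% and 21.7% of all genes). Of 74 mitochondrial ribosomal protein genes tested, GSK-126 in HepG2 lowered 34 and raised 15 (median -0.10; 39 and 10 without scaling). Of all genes it lowered 21.7% and raised 31.0%, and 69 of the 83 cytoplasmic ribosomal protein genes rose. In SNU475, 43, 37 and 50 of the mitochondrial ones rose with decitabine, GSK-126 and the combination, and 5, 8 and 7 fell. Of all genes 24.2%, 21.5% and 25.3% rose with these treatments and 27.3%, 28.5% and 29.6% fell.

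Among 16 growth regulators, SESN2 and DDIT4, both inhibitors of mTOR signalling, rose most with GSK-126 in SNU398. SESN2 was at 95.4 ± 2.12 with GSK-126 and 11.0 ± 0.429 with DPBS, a change of 3.06 ± 0.042 (limma adjusted p = 3.3e-16). DDIT4 was at 50.3 ± 0.891 with GSK-126 and 11.5 ± 0.186 with DPBS. With the combination in SNU398 SESN2 was at 8.61 ± 0.174. CDKN1A, the cell-cycle inhibitor, rose in HepG2 with decitabine (1.22) and the combination (1.98), at 74.7 ± 4.55 with the combination, 43.8 ± 0.395 with decitabine and 18.6 ± 0.535 with DPBS. MYC, named here for HepG2 after its values were seen, was at 83.5 ± 0.0913 there with GSK-126 and 39.9 ± 1.49 with DPBS. It rose in SNU475 with the combination (0.70 ± 0.031). Its other changes are not given here, and the part of these regulators in the results was not tested.

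Of the pseudogenes of ribosomal protein genes, 854 were listed and 160 tested. Most were not called. With decitabine in HepG2 46 were lower and 12 higher (67 and 7 with quantile normalization), at a median of -0.19. The 28.8% lower stand beside 18.3% of all genes, and the 7.5% higher beside 35.9%. With GSK-126 in HepG2 49 were higher and 4 lower, at a median of 0.25. The 30.6% higher are near the 31.0% of all genes, and the 2.5% lower are below the 21.7% of all genes. With the combination in SNU475 32 were higher and 7 lower, at a median of 0.15. The 20% higher are below the 25.3% of all genes, and the 4.38% lower are below the 29.6% of all genes. Whether their reads came from the parent mRNAs was not tested.

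The genes outside the set most like it were sought among 1138 protein-coding genes with at least 10 RPKM in every library, by Pearson correlation with the set's median over the 9 changes from DPBS, of which 3 at a time share their DPBS libraries. The 5 closest were NPM1 (0.96), RBM3 (0.955), GNB2L1 (0.942), CTCF (0.939) and SLC25A3 (0.935). NPM1, a nucleolar chaperone, changed by -0.12, 0.50 and -0.30 in HepG2, by -0.30, -0.15 and -0.29 in SNU398 and by 0.24, 0.13 and 0.33 in SNU475 with decitabine, GSK-126 and the combination, of which decitabine in HepG2 (0.13) and GSK-126 in SNU475 (-0.03) turned round with quantile normalization. GNB2L1, the small-subunit scaffold protein also called RACK1, changed by -0.29, 0.49 and -0.17 in HepG2, where decitabine and the combination gave 0.06 and 0.12 with quantile normalization.

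Mesenchymal markers, 7 genes including VIM and COL1A1, moved with the treatments as well. Their summed level was 250 to 257 RPKM with decitabine, 266 to 270 with GSK-126, 265 to 270 with the combination and 285 to 286 with DPBS in HepG2. In SNU398 it was 401 to 409, 432 to 464 and 392 to 396 with decitabine, GSK-126 and the combination, and 384 to 388 with DPBS. In SNU475 it was 785 to 787, 760 to 780 and 842 to 863 with these treatments and 647 to 658 with DPBS. Of the 7 markers, 4, 6 and 5 rose with decitabine in HepG2, SNU398 and SNU475, where 35.9%, 23.4% and 24.2% of all genes rose. COL1A2 and THY1 were under 0.05 RPKM in every HepG2 group. The part of these genes in the changes of the ribosomal protein genes was not tested.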

How the data were processed

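Ribosomal-RNA-depleted stranded libraries (KAPA) were sequenced in single reads of 75 bases on a NextSeq 500, per the labels' protocols. The build hg19, HISAT2 and featureCounts are named in the submitters' processing notes. Not given in the sources used here are their versions, the annotation, the use of strand in counting and what was done with reads that map to several places. The authors deposited RPKM per gene, per the file headers. Gene lengths were given with the RPKM, and the reads behind each value were recovered from the steps of the values, whole within 0.15 reads.

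Each library's RPKM was divided by a median-of-ratios factor (0.847 to 1.158) from 8211 genes (RPKM 1 or more throughout). The 19377 genes that reached 0.5 RPKM in 2 libraries or more were taken to log2 with a pseudocount of 0.5, which draws low genes towards 0. A linear model of the 12 group means over the 24 libraries was fitted in limma 3.58.1 (R 4.3.3; 12 residual degrees of freedom; trend and robust moderation). Tests were two-sided, with p-values adjusted by Benjamini-Hochberg over all genes tested and called under 0.05. The code was tested on simulated data. Levels carry the SD of the 2 libraries, and changes the standard error of the model.

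The members and gene lists were chosen with earlier results of these data known. Named were a standing set of ribosomal proteins and the paralogs, the 3 highest and 3 lowest changes of a comparison, genes called past a factor of 2 or, if at most 5, against the majority, and 2 genes of each related list. Other genes were named after their values were seen. Alternatives were other pseudocounts, no filter, no scaling, quantile normalization, scaling without the members, each line alone, the replicate letter as a block, and leaving out each library. Promoter sequences and starts are from RefSeq (GRCh38.p14) and snoRNAs from GENCODE v29. Protein sequences were not used here. Some genes are not reported here.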

Additional observations from a re-analysis of the deposited data

Results flagged for a closer look

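Differences between the cell lines in the effect of a treatment drew attention for most ribosomal protein genes. The moderated F test of limma called 79 of 83 for decitabine, 80 for GSK-126 and 81 for the combination. These counts stand beside 68.2%, 71.5% and 76.8% of all genes tested.

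In 7 cases a gene was called higher by at least 0.5 (log2) in 1 line and lower by at least 0.5 in another with the same treatment, and the F test of the difference was called. With GSK-126 these were RPL23 (0.62 in HepG2 and -0.69 in SNU398; adjusted p = 1.2e-10), RPS15 (higher in SNU475, with 37.3 and 37.5 against 25.4 and 26.8 with DPBS, and lower in SNU398, with 61.3 and 59.4 against 85.4 and 87.0; adjusted p = 1.7e-09) and RPS28 (higher in HepG2 and SNU475 and lower in SNU398; adjusted p = 7.7e-08).

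With the combination they were RPL23A (69.9 and 71.1 against 51.7 and 47.4 with DPBS in SNU475, and 48.4 and 47.3 against 67.7 and 72.1 in SNU398; adjusted p = 1e-08), RPS12 (0.51 in SNU475 and -0.75 in HepG2; adjusted p = 1.3e-08), RPS13 (0.50 in SNU475 and -1.08 in HepG2; adjusted p = 1.1e-12) and RPS29 (0.54 in SNU475, against -1.43 in HepG2 and a lower level in SNU398 too; adjusted p = 5e-09).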

How the results depend on the processing

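The numbers of genes called for decitabine, GSK-126 and the combination against DPBS stayed within 1.5 times under the alternatives run. With quantile normalization the split moved by more in SNU475, with 24 higher and 24 lower for decitabine, 32 and 9 for GSK-126 and 39 and 10 for the combination, and the minority grew in HepG2, with 9 higher and 54 lower for decitabine and 11 and 49 for the combination. Counts that turned were the combination against decitabine in HepG2 (30 without scaling, 25 without decitabine B and 24 without combination A, range 24 to 31 over single libraries left out), the combination against GSK-126 in SNU398 (51 without scaling), DPBS in SNU398 against HepG2 (72 without scaling and 72 with quantile normalization, where the median of all genes was 0.219 without scaling and 0.0124 as reported) and the interaction in SNU475 (37 with quantile normalization). Leaving out a library gave 11 to 26 genes for the combination against decitabine in SNU398 and 17 to 31 in SNU475. The summed level after scaling was 77.7%, 123% and 79.0% of DPBS in HepG2 with decitabine, GSK-126 and the combination, 84.0% in SNU398 with GSK-126 and 111% in SNU475 with decitabine.

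Single genes reversed with quantile normalization: with the combination RPL39L (-0.11), RPLP0 (0.12) and RPLP2 (0.06) in HepG2, RPL11 (0.08) and RPLP1 (0.02) in SNU398, and RPL3 (-0.04), RPL5 (-0.10) and RPS27 (-0.03) in SNU475. With decitabine RPLP0 (0.22) in HepG2, RPL11 (0.05) in SNU398 and RPL10 (-0.01) in SNU475 did so. Without scaling RPL3 (-0.03) and RPS9 (-0.01) reversed with decitabine in HepG2. Of 611 called changes from DPBS, 47 reversed with quantile normalization, 4 without scaling and 0 when a library was left out. The cause was not tested.

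The correlation of A minus B between groups of a line was -0.12 to 0.24, which cannot settle whether the letters pair the libraries. With the letter as a replicate block 71, 73 and 69 genes were called in HepG2 with decitabine, GSK-126 and the combination, and no count moved by over 1.5 times. With 2 libraries a group, changes under about 0.1 often lose their call without a library, and RPL10L and RPL39L rest on few reads outside SNU475.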

Other observations

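In HepG2, reads of MIR3648 and MIR3687, microRNA genes within the ribosomal RNA transcription unit, took 2.97% and 3.06% of gene reads with the combination, 1.48% and 1.52% with decitabine, 1.04% and 1.31% with GSK-126, and 0.97% and 1.01% with DPBS. They were chosen after their values were seen, and no test was run. In SNU475 they took 0.19% to 0.34% in every library.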
